A study of Mus musculus with 2 samples.

Results

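Cytosine methylation at CpG dinucleotides is written, copied and removed by a small set of proteins, and the RNA levels of 9 of their genes were read in hair follicle stem cells of mouse skin. The genes are Dnmt1, Dnmt3a, Dnmt3b, Dnmt3l, Uhrf1, Tet1, Tet2, Tet3 and Tdg. They were chosen by symbol, from what their proteins do and with earlier results of these data known. Each stood on 1 of the 42392 gene IDs of the expression table. The series describes 2 samples of female mice, both titled controls. The first is labelled telogen, when the follicle rests, and the other anagen II-III, when it starts to grow a hair. The cells were sorted with high integrin alpha 6 and with CD34, after cells with SCA1 or with markers of fibroblasts, melanocytes or mast cells, endothelium and leukocytes had been removed. Both samples have the genotype K15-CrePGR; Shh+/-, which is a keratin 15 promoter driving a Cre fused to the progesterone receptor together with 1 functional copy of Shh, and both received RU486, the ligand of that Cre, for 8 days. Neither sample is labelled as wild type or as free of the ligand, and the number of animals behind a sample is not in the labels. Only the anagen II-III library could be matched to a column of the table by name, so telogen was not analysed here and the stages were not compared.

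All values below are TPM, a measure of transcript abundance corrected for gene length and for the library's total. With 1 library, no value carries an error and no difference between genes was tested. The read depth is unknown. Markers of the sorted cells were present in this library. All 9 bulge stem cell genes checked reached 1 TPM, the lowest at 16.1 TPM. Krt15 alone gave 3364 TPM of their summed level of 4333 TPM, and Cd34 stood at 132 TPM. Of other cells, 6 of 6 fibroblast markers reached 1 TPM, with a summed level of 879 TPM. The collagen genes Col3a1, Col1a1 and Col1a2 led them at 287, 278 and 237 TPM, followed by Dcn at 63.9 TPM and Lum at 11.8 TPM, and Pdgfra, which encodes the marker used to remove such cells, was lowest at 1.44 TPM. At 1 TPM or more were also 4 of 6 leukocyte markers (summed level 30.1 TPM), 4 of 5 endothelial markers (11.6 TPM), 5 of 6 melanocyte markers (44.8 TPM) and 6 of 6 suprabasal markers (1314 TPM), and none of these genes was listed at 0. Over all protein-coding genes the share at that level was 56.1%, so the leukocyte count is near it. The median level was 99.4 TPM over the bulge genes, 151 TPM over the fibroblast markers and 85.6 TPM over the suprabasal markers. The melanocyte, leukocyte and endothelial medians were 9.40, 3.12 and 2.01 TPM. The part of other cells in the levels of the DNA methylation genes was not tested. In a bulk library, few cells with much of an RNA and many cells with little of it cannot be told apart.

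As background, DNMT3A and DNMT3B place methyl groups on unmethylated CpG, helped by DNMT3L, which has no catalytic activity of its own. After replication, UHRF1 recognises CpG methylated on the old strand only and brings in DNMT1, which methylates the new strand. The TET enzymes oxidise 5-methylcytosine, and the glycosylase TDG cuts out the most oxidised forms, so that base excision repair can restore cytosine. In skin, DNMT1 and UHRF1 are known for keeping epidermal progenitors proliferative and undifferentiated.

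Of 5 short sequences searched at the gene starts, 1 was found in both genes of the maintenance pair and in no other member. RefSeq start-site windows of assembly GRCm38.p6, which run from 250 bases before to 50 bases after an annotated start, were at hand for all 9 genes, 16 windows in all. TTTCGCGC, 1 form of the recognition sequence of the E2F factors of the cell cycle, was found in 1 window of Dnmt1 and in 1 window of Uhrf1 and in no window of the other 7 genes, with both strands searched. It occurred in 0.323% of all 32851 windows, or 106. Counted by gene, 0.547% of protein-coding genes with a window held it in any of their windows. The sequence itself holds CpG, and its share among CpG-rich windows alone was not counted. Dnmt1 had 3 windows searched and Uhrf1 had 2. Dnmt3a and Dnmt3l had 3 each, and Dnmt3b, Tdg, Tet1, Tet2 and Tet3 had 1 each. In the 30-base stretches around the matches, shown 5′ to 3′ in the direction of the gene, capitals mark the match, which in Dnmt1 reads on the opposite strand.
Dnmt1: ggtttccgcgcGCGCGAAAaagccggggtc
Uhrf1: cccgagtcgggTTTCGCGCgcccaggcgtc
The Dnmt1 match lies on chromosome 9 at 20952835 to 20952842 and begins 219 bases before the start of that window's transcript. The Uhrf1 match lies on chromosome 17 at 56304128 to 56304135 and begins 185 bases before its start. The related form TTTGGCGC was found in 1 further place of the same Dnmt1 window, without overlap, and in no window of the other 8 genes. It occurred in 0.514% of all windows and in 0.758% of protein-coding genes with a window. Of the 3 other sequences searched on both strands, GGGCGG stood in 8 of the 9 members and 50.8% of protein-coding genes with a window, CCAAT in 4 members (Dnmt1, Uhrf1, Tdg and Tet3) and 42.2% of genes, and TATAAA in 0 members and 14.5% of genes. These matches are letters in a window and not sites shown to be bound.

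The windows with the matches are shown here whole, followed by those of Dnmt3l and Tet2, which hold the fewest and the most CpG among the members, and of Tet1, the lowest of them in RNA. Where a gene has several windows, the one with the most CpG is given. In these 5 sequences, capitals mark every CpG.
Uhrf1, chr17:56304063-56304362, plus strand: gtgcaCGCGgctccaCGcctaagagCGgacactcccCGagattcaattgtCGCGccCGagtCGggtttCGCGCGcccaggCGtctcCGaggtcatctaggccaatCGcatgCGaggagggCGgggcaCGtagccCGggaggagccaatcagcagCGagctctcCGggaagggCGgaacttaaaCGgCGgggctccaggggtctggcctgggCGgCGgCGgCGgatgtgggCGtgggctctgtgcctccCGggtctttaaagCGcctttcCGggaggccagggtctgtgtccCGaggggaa
Dnmt1, chr9:20952574-20952873, minus strand: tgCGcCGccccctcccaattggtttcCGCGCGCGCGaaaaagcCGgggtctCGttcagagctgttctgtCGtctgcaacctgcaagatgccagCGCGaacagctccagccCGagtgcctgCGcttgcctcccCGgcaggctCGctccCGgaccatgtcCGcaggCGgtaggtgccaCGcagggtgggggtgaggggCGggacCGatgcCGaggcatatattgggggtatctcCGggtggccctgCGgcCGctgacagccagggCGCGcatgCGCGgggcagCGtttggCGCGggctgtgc
Dnmt3l, chr10:78042037-78042336, plus strand: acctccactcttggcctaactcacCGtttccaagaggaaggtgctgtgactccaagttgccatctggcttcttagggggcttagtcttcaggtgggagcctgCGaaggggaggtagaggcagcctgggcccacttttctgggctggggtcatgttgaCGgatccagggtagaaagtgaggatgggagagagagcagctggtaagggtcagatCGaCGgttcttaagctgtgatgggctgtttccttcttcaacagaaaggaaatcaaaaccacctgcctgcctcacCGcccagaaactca
Tet2, chr3:133544341-133544640, minus strand: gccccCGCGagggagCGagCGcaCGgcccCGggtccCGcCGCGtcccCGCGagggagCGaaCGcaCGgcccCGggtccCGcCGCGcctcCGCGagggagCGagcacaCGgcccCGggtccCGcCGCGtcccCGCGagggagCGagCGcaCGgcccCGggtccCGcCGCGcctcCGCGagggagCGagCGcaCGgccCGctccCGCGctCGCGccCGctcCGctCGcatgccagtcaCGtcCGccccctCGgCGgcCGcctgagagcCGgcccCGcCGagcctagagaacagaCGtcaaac
Tet1, chr10:62887275-62887574, minus strand: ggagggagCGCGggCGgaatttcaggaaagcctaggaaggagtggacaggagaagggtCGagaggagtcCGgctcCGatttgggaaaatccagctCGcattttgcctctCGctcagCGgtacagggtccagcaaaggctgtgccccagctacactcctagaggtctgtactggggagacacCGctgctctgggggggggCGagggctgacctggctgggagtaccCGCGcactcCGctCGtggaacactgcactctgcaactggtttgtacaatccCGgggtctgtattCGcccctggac
The windows of Uhrf1 and Dnmt1 held 33 CpG each, that of Dnmt3l 6, that of Tet2 57 and that of Tet1 17. The other members lay between Tet1 and Tet2, with 22 CpG for Tet3, 26 for Tdg, 30 for Dnmt3b and 47 for Dnmt3a. Over 16624 protein-coding genes with such a window the median was 15.0 CpG, so that 8 of the 9 members lay above it and Dnmt3l below. Dnmt1, Uhrf1, Dnmt3a and Dnmt3l also have annotated starts with fewer CpG. The other Dnmt1 windows held 2 and 12 CpG, and the other Uhrf1 window held 12. The other windows of Dnmt3a held 46 and 18 CpG, and those of Dnmt3l held 4 and 3. No window of Tet3, Dnmt3a or Tet2 covers the outermost annotated base on the start side of the gene. Their CpG counts therefore belong to starts further inside. On the minus strand of chromosome 6, the Tet3 window ends at 83441928 and the gene at 83457208. The expression table gives 1 value a gene and cannot say which start was used.

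RNA of 8 of the 9 genes reached 1 TPM in the anagen library, against 56.1% of 20736 protein-coding genes. At 5 TPM or more stood 5 of the 9, against 42.5%. The members spanned a wide range, from Uhrf1 at 48.9 TPM to Tet1 at 0.480 TPM, which is 102-fold. Their median was 11.1 TPM, close to the median of 12.5 TPM over the 11639 protein-coding genes at 1 TPM or more. From the top, the order was Uhrf1, Tdg, Dnmt1, Tet3, Dnmt3a, Tet2, Dnmt3l, Dnmt3b and Tet1. Uhrf1 alone gave 35.3% of the summed level of the 9 genes. The spread between samples is unknown, so neighbours in this order, such as Dnmt3l and Dnmt3b, cannot be called different.

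**Figure D1:**
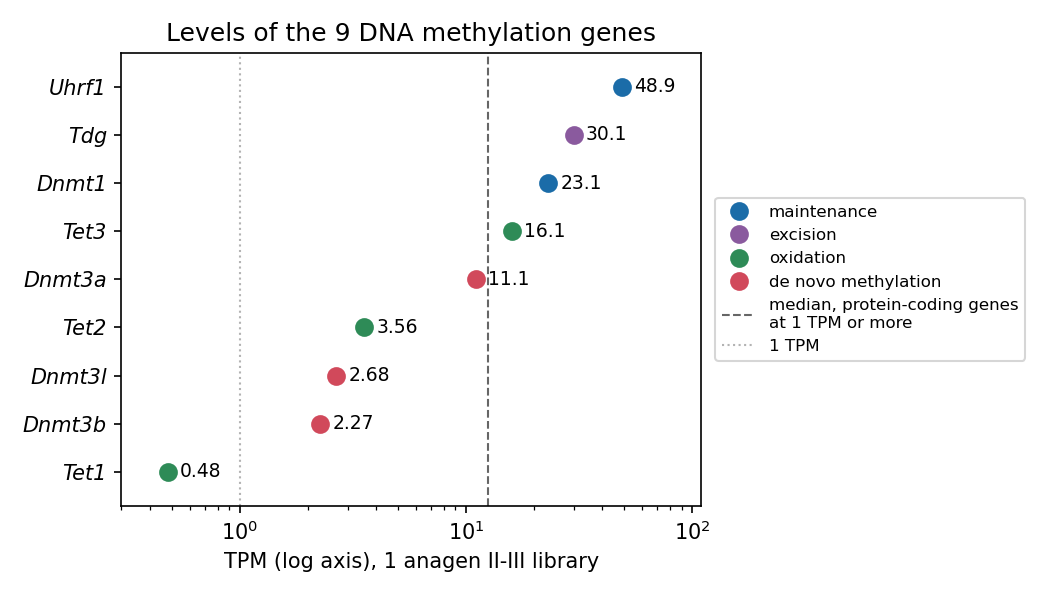
Level of each member in the anagen II-III library in TPM on a log axis, 1 point a gene, coloured by the role of its protein. The dashed line is the median of 12.5 TPM over protein-coding genes at 1 TPM or more, and the dotted line is 1 TPM. Uhrf1, Tdg, Dnmt1 and Tet3 lie right of the dashed line, and Tet1 alone lies left of the dotted one.

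The maintenance pair was well expressed. Uhrf1 (ENSMUSG00000001228, chromosome 17, 56303337 to 56323486 in GRCm38), the reader of half-methylated CpG, stood at 48.9 TPM and so above 85.3% of the expressed protein-coding genes, a term used here for those at 1 TPM or more. Dnmt1 (ENSMUSG00000004099, chromosome 9, 20907206 to 20959888), the copying enzyme, stood at 23.1 TPM and above 68.2% of them. Uhrf1 RNA was thus 2.11-fold that of the enzyme its protein recruits. Uhrf2, the relative of Uhrf1, stood at 24.8 TPM, and Uhrf1 was 1.97-fold higher.

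All 13 genes of a list linked to maintenance after replication, Uhrf2 among them, were at 1 TPM or more, against 56.1% of protein-coding genes. The median of the list was 37.8 TPM. Pcna, the sliding clamp that DNMT1 binds, stood at 75.3 TPM, which is 3.25-fold the level of Dnmt1. The deacetylase gene Hdac2 and the histone methyltransferase gene Ehmt2, also called G9a, stood at 72.2 and 71.5 TPM, and Pclaf, which encodes a PCNA-binding factor, at 57.02 TPM. The lowest of the list were Dmap1 at 17.0 TPM, whose protein binds DNMT1, and Cdca7l at 12.4 TPM. Dnmt1 was below 10 of these 13 genes and Uhrf1 below 5.

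Uhrf1 and Dnmt1 lay within the wide range of the DNA replication genes, and so did Tdg at 30.1, Tet3 at 16.1 and Dnmt3a at 11.1 TPM. All 20 replication genes were at 1 TPM or more, against 56.1% of protein-coding genes. They ran from Cdc6 at 6.06 TPM to Pcna, and their median was 30.4 TPM. Near the top were the helicase subunit gene Mcm6 at 63.3 TPM, the histone mRNA-binding gene Slbp at 61.2 TPM and the GINS subunit gene Gins2 at 56.8 TPM, and next to lowest was Cdc45 at 7.55 TPM. Dnmt1 was below 12 of the 20 genes and Uhrf1 below 5. The sequence TTTCGCGC shown above for Dnmt1 and Uhrf1 was found in 3 of the 16 replication genes with a window. These were Mcm5, Mcm6 and Mcm7, named after their values were seen. Of 16624 protein-coding genes, 91 (0.547%) held it in any window. Of these 91 genes, 89.0% reached 1 TPM and the median was 17.4 TPM, against 56.4% and 2.60 TPM over all genes with a window. For the genes with 30 or more CpG in the window, as in Dnmt1 and Uhrf1, these were 85.6% and 11.6 TPM, and the searched sequence itself holds CpG. The related form TTTGGCGC was found in 5 of the 16 replication genes and in 126 protein-coding genes. Of these 126 genes, 84.9% reached 1 TPM and the median was 9.52 TPM, both below the values of the CpG-rich genes. CCAAT, which Dnmt1 and Uhrf1 also hold, was found in 12 of the 16 replication genes, against 42.2% of protein-coding genes. GGGCGG, also in both, was found in 11 of the 16, against 50.8%, and TATAAA in 2, against 14.5%.

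The de novo group was lower and was led by Dnmt3a. Dnmt3a (ENSMUSG00000020661, chromosome 12, 3801559 to 3914443) stood at 11.1 TPM, above 46.3% of expressed protein-coding genes. Dnmt3b (ENSMUSG00000027478, chromosome 2, 153649411 to 153687730) stood at 2.27 TPM, above 9.76% of them, so that Dnmt3a was 4.89-fold higher than its sister enzyme. Of the summed RNA of these 2 genes, Dnmt3a gave 83.0%.

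Dnmt3l, whose product is best known from germ cells and early embryos, was detected at 2.68 TPM (ENSMUSG00000000730, chromosome 10, 78042287 to 78063622). This was 1.18-fold the level of Dnmt3b and above 12.4% of expressed protein-coding genes. TPM per gene does not show whether the reads came from the full-length transcript, and Dnmt3l has 3 annotated start windows. Dnmt1 exceeded Dnmt3a 2.08-fold, Dnmt3b 10.2-fold and Dnmt3l 8.65-fold.

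Among the TET genes, Tet3 was the main one. Tet3 (ENSMUSG00000034832, chromosome 6, 83362373 to 83457208) stood at 16.1 TPM, above 57.4% of expressed protein-coding genes, and gave 79.9% of the summed TET level. Tet2 (ENSMUSG00000040943, chromosome 3, 133463677 to 133545136) stood at 3.56 TPM, and Tet1 (ENSMUSG00000047146, chromosome 10, 62804570 to 62887469) at 0.480 TPM. Tet3 was 4.51-fold above Tet2 and 33.5-fold above Tet1. Tet1 was the only member under 1 TPM, and it came to 1.005 TPM when values were rescaled over nuclear protein-coding genes.

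The catalytic methyltransferase genes Dnmt1, Dnmt3a and Dnmt3b summed to 36.5 TPM and the 3 TET genes to 20.1 TPM, a ratio of 1.82. Counting only Dnmt3a and Dnmt3b, which summed to 13.4 TPM, the ratio was 0.666. Which side had more RNA therefore turned on Dnmt1. RNA sums do not measure enzyme activity.

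Genes of TET partners and regulators ranged widely, with 6 of 13 at 1 TPM or more and a median of 0.527 TPM. This share, 46.2%, stands against 56.1% of all protein-coding genes, and over so few genes it is near it. Ogt, the GlcNAc transferase that binds TET2 and TET3, led at 44.7 TPM. The Gadd45 stress genes, linked to active demethylation, followed with Gadd45g at 40.2 TPM, Gadd45a at 27.3 TPM and Gadd45b at 20.3 TPM. Dppa3 and Prdm14, factors of germ cells and pluripotent cells, were listed at 0.

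Tdg was the second highest member. It stood at 30.1 TPM (ENSMUSG00000034674, chromosome 10, 82629814 to 82650799), above 74.99% of expressed protein-coding genes and 62.6-fold above Tet1. Whether reads of Tdg are shared with pseudogene copies was not tested. Against the other glycosylase genes that act on T or U opposite G, Tdg was 1.94-fold above Ung, 4.96-fold above Smug1 and 8.46-fold above Mbd4.

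Other genes of base excision repair, glycosylases and the enzymes that act after them, were expressed, 14 of 14 at 1 TPM or more. The share over all protein-coding genes was 56.1%, and the median of the 14 genes was 11.5 TPM. Apex1, the nuclease that cuts the empty site, stood at 70.8 TPM, 2.36-fold above Tdg. The polymerase gene Polb stood at 32.9 TPM, the scaffold gene Xrcc1 at 31.7 TPM and Parp1 at 21.0 TPM. The glycosylase genes Neil1 and Neil2 were lowest, at 3.97 and 1.06 TPM. Of the cytidine deaminase genes, Apobec1 and Apobec3 stood at 43.4 and 19.02 TPM and Apobec2 at 0.0841 TPM.

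**Figure D2:**
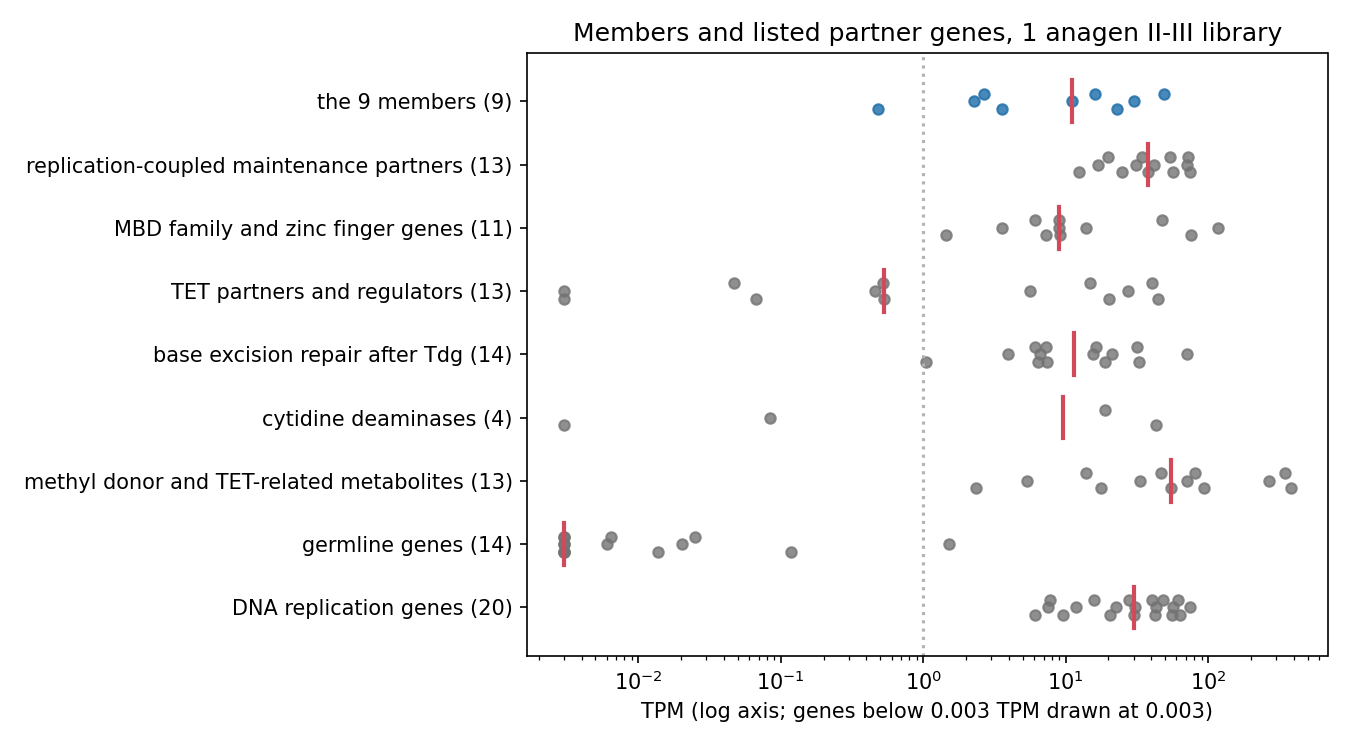
Levels in TPM on a log axis of the 9 members (blue) and of each listed partner gene (grey) in the anagen II-III library, 1 point a gene, with the list size in brackets and a red bar at the median. Genes under 0.003 TPM are drawn at 0.003, and the dotted line is 1 TPM. All points of the maintenance partner and DNA replication lists lie right of the dotted line, and 1 of 14 germline genes does.

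A further list holds methyl-CpG binding domain family genes and zinc finger genes for methylated DNA. Its median was 9.02 TPM, and 11 of 11 were at 1 TPM or more, against 56.1% of protein-coding genes. Not all genes of this list encode readers of the mark, since mammalian MBD3, MBD5 and MBD6 are not known to bind methylated CpG selectively. Mbd3 and Mbd2, whose products sit in NuRD complexes, led at 117 and 76.2 TPM, followed by Mbd6 at 47.2 TPM and Mbd1, a reader, at 13.9 TPM. The lowest were Mbd4 at 3.56 TPM and Zfp57, a factor that protects imprints, at 1.45 TPM.

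The enzymes also depend on metabolites. Another list holds genes that make or use the methyl donor, alpha-ketoglutarate, or the metabolites succinate and fumarate, which can inhibit TET enzymes. It had 13 of 13 at 1 TPM or more, against 56.1% of protein-coding genes, with a median of 54.9 TPM. Sdha, of succinate dehydrogenase, which uses succinate and does not make alpha-ketoglutarate, led at 383 TPM, followed by Gnmt, which spends the methyl donor on glycine, at 348 TPM, Mat2a, which makes the donor, at 268 TPM, and Sdhb, of the same dehydrogenase, at 94.1 TPM. Gnmt RNA was 15.0-fold that of Dnmt1. At the bottom was Mtr, the methionine synthase gene, at 2.35 TPM. Over the 6 lists of partner genes together, without the DNA replication and germline lists, 59 of 68 genes were at 1 TPM or more. The share over all protein-coding genes was 56.1%, and the median of the 68 genes was 18.3 TPM.

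The CpG count of the start window did not order the members by level. Across the library, the share of protein-coding genes at 1 TPM or more was 18.95% for genes with at most 9 CpG in the window, 71.6% with 10 to 19, 83.6% with 20 to 29 and 85.6% with 30 or more. Dnmt3l, in the first of these classes, was among those 18.95%, and its 2.68 TPM lay above that class's upper quartile of 0.361 TPM. Tet1, in the second class, was among the genes under 1 TPM and lay below the class's lower quartile of 0.542 TPM. Of the 5 members with 30 or more CpG, Uhrf1 lay above the upper quartile of 28.7 TPM, Dnmt1 and Dnmt3a lay between the quartiles, and Tet2 and Dnmt3b lay below the lower quartile of 4.04 TPM. Genes were placed by their window with the most CpG, and Dnmt1, Uhrf1 and Dnmt3a also have windows with under 20. The classes share 1 library, and the CpG count says nothing of whether those CpG were methylated in these cells.

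**Figure D3:**
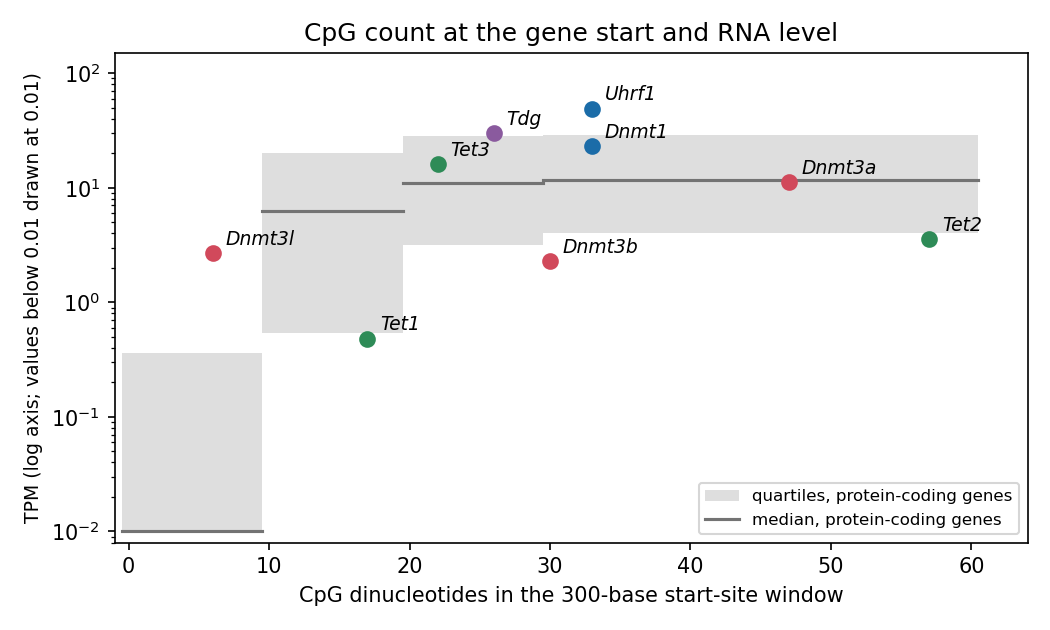
RNA level in TPM on a log axis against the number of CpG in the 300-base start window, 1 labelled point for each member (maintenance blue, de novo red, oxidation green, excision purple). Genes with several windows are placed by the one with the most CpG. Grey boxes span the quartiles and dark lines give the medians of protein-coding genes in 4 classes of CpG count. Uhrf1 and Tdg lie above their box, Dnmt3l above the box of the CpG-poor genes, and Tet1, Tet2 and Dnmt3b below theirs.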

How the data were processed

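RNA was measured in 2 samples, of which the anagen II-III library was used. Per the file headers, the deposited values are TPM. The submitters' processing notes name RSEM 1.2.30, Bowtie2 2.2.9 and the build mm10. The gene annotation is not given in the sources used here. The column named 1 was matched to the anagen sample, the only one with a title numbered 1. The other 11 columns of per-sample values were not used. TPM keeps no depth, so no interval or floor was set.

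The 42661 rows hold 42392 gene IDs, each used once. Of these, 28459 have a symbol in the file. Missing symbols came from a gene name table that covers 41523 IDs. Gene types and positions came from RefSeq, GRCm38.p6 (mm10 is another name for GRCm38), matched by symbol for 32657 IDs. All 9 members matched a RefSeq start window. A gene was called expressed at 1 TPM or more. Percentiles are the share of expressed nuclear protein-coding genes with a lower value. They and the motif counts were checked on made-up data. Likeness of pattern across samples cannot be computed from 1 library. The members, the 8 gene lists (6 of partners, 1 of DNA replication genes and 1 of germline genes) and the 6 marker lists were chosen with earlier results of these data known. Named genes are the members and, of each list, the 4 highest and the 2 lowest, or all of a list of at most 6. Some genes that this choice would name are not reported here. Uhrf2, Ung, Smug1 and the bulge markers given singly were added after their values were seen. The start-window analysis, with its motifs, was added after the table was seen. The alternatives tried were other thresholds, scalings, summaries and backgrounds. Calculations used Python 3.11.15, pandas 2.3.3 and numpy 2.4.6, and plots matplotlib 3.10.9.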

Additional observations from a re-analysis of the deposited data

How the results depend on the processing

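The order of the members did not change under the 2 rescalings, which multiply all of them by the same factor, 1.73 without mitochondrial genes and the 50 highest genes and 2.09 over nuclear protein-coding genes. The median of the 9 members was 19.3 and 23.3 TPM under these. It was 8.497 TPM as a geometric mean with 1 added and 7.53 TPM with 0.1 added. At a threshold of 5 TPM, 5 members were counted as expressed. The median member lay at the 46.3rd percentile of expressed protein-coding genes, at 69.8 among all protein-coding genes and at 29.1 among those at 5 TPM or more. The ratio of methyltransferase to TET sums was 1.95 with Dnmt3l added and 0.666 with Dnmt3a and Dnmt3b only. Summing the IDs of a symbol changed no value of a member, since each has 1 ID. No paired analysis was possible because 1 library was analysed. The read depth is unknown, and it limits the low values of Tet1, Dnmt3b and Dnmt3l most.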

Other observations

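Germline genes, a group known to be kept silent in body cells by methylation of CpG-rich promoters, were almost all under 1 TPM in the anagen library. The genes were listed for that known silencing, so a low count was built into the choice of list. Of 14 listed, 1 reached 1 TPM, against 56.1% of protein-coding genes. This was Brdt, a testis bromodomain gene, at 1.52 TPM. The synaptonemal complex gene Sycp3 followed at 0.118 TPM, Mael at 0.0251 TPM and Tex101 at 0.0202 TPM, and 7 were listed at 0, among them Sycp1 and Zfp42. Of the 13 with a start window, 12 held 10 CpG or more, with a median of 21.0 CpG. The table holds RNA levels only, so the methylation of these starts was not measured.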
